A study of Cyanidioschyzon merolae strain 10D with 4 samples.

Results

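The genes described here encode parts of the machinery that divides the plastid and the mitochondrion of Cyanidioschyzon merolae, together with the tubulins of its microtubules. They were chosen by gene ID as 7 of the 5100 rows of the authors' deposited table: 3 plastid division genes (FtsZ2-1, the plastid dynamin and PDR1), 2 mitochondrial division genes (FtsZ1-1 and the mitochondrial dynamin), and the genes of beta-tubulin and alpha-tubulin. The names came with the choice of genes, since the deposited table and the reference gene table give locus tags only, so they could not be checked against an annotation. All 7 lie on nuclear chromosomes and had a valid test. The study measured messenger RNA by sequencing in wild-type cells of strain 10D, grown in 2xMA medium, in 2 libraries of cells labelled as kept in darkness and 2 of cells that received 30 minutes of blue light at 15 µmol of photons on each square metre every second. The groups follow the sample titles. The text on treatment describes blue light for all 4 libraries, so it does not say how long the darkness cells had been dark. The series' design text calls the libraries biological duplicates, but no sample label ties them to separate cultures, so p-values cover no more than the spread among these libraries, which may be technical.

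Cyanidioschyzon merolae is a unicellular red alga with a single plastid and a single mitochondrion, which divide in a fixed order once per cell cycle, and the cycle can be synchronised by alternating light and darkness. Each organelle is cut by a ring assembled at its middle. On the inside, FtsZ, a GTPase of bacterial ancestry related to tubulin, forms the first ring, and on the outer surface a dynamin, a GTPase that pinches membranes, acts late in constriction. PDR1 is a glycosyltransferase that builds the polyglucan filaments of the outer plastid-dividing ring. Alpha-tubulin and beta-tubulin pair into the dimers from which microtubules, including those of the mitotic spindle, are made. Because RNA came from whole cultures, a change in the share of cells at a given stage of the cycle cannot be told apart from a change in transcript per cell.

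Under blue light, 2 of the 7 genes rose, 1 fell and 4 did not pass the test. Beta-tubulin rose 6.56-fold and plastid FtsZ2-1 rose 2.37-fold, while the plastid dynamin fell 1.57-fold, all in the authors' deposited table at a q-value under 0.05. PDR1, both mitochondrial genes and alpha-tubulin were not called. The called members made up 42.9% of the 7, whereas 53.2% of all 4503 tested genes were called, 27.1% as rises and 26.1% as falls, so the number of calls does not set these genes apart. The median log2 fold change of the members was 0.28, against -0.017 for all tested genes, whose quartiles were -0.65 and 0.74.

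The deposited values are FPKM (fragments per kilobase of transcript, scaled to sequencing depth), 1 for each condition and with no spread. Whole fragments in each library could be worked back from these values for 5 of the members, and the libraries of a condition are called the deeper and the shallower one because they could not be matched to replicate numbers. Over the 3165 genes with a single solution, the libraries held 363719 and 276021 fragments in darkness and 245567 and 192674 under blue light. Among the 2992 of these genes with a valid test, values of a gene differed between the libraries of a condition. The SD of the difference was 0.344 on the log2(FPKM + 1) scale in darkness and 0.411 under blue light. For the plastid dynamin and the mitochondrial dynamin no library values were obtained.

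**Figure D1:**
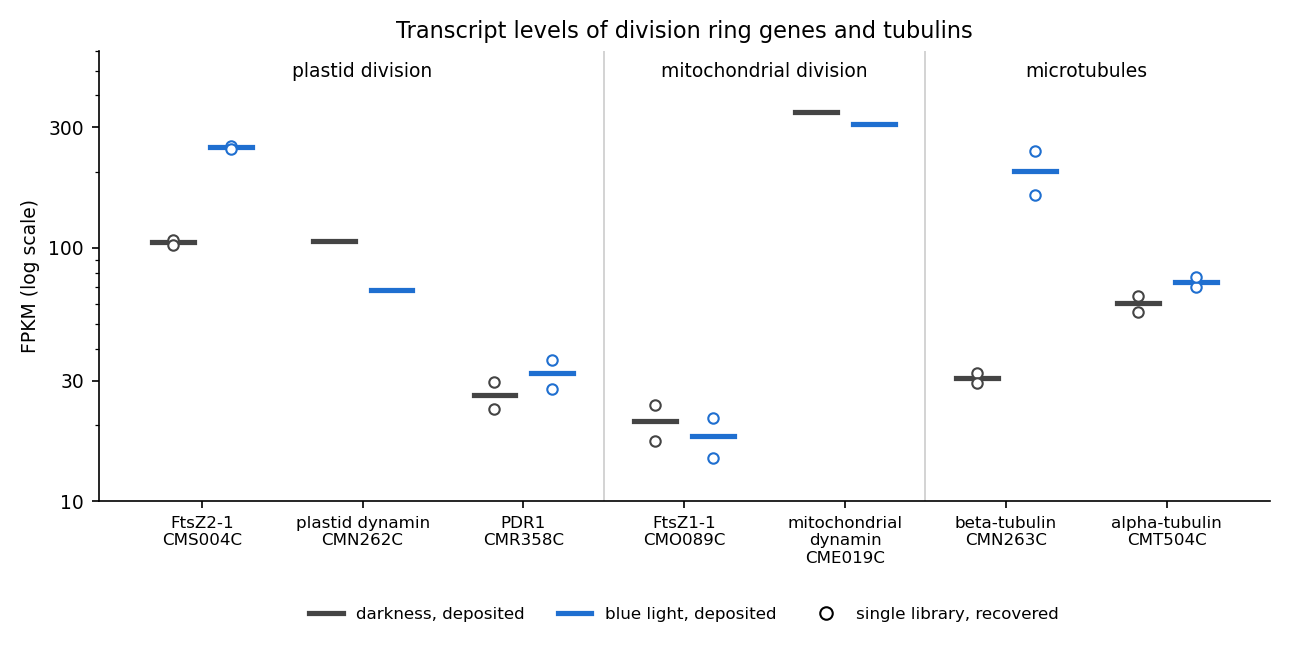
FPKM on a log axis for each gene in darkness (grey) and under blue light (blue). Bars are the deposited values and open circles are single libraries recovered from them, shown for 5 of the 7 genes. The circles of both conditions lie apart for FtsZ2-1, beta-tubulin and, narrowly, alpha-tubulin, and overlap for PDR1 and FtsZ1-1.

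Among the plastid division genes, the transcripts of the inner ring FtsZ2-1 and of the outer dynamin changed in opposite directions. FtsZ2-1 (CMS004C, chromosome 19 from 8579 to 10091, coordinates here and below as deposited) was listed in the authors' deposited table at 105 FPKM in darkness and at 249 FPKM after blue light. In the recovered libraries the darkness values were 107 and 103 FPKM, from 122 and 89 fragments, and the blue light values were 254 and 245 FPKM, from 185 and 138 fragments. Both blue light libraries were thus more than double either darkness library, and the libraries within a condition were close. The log2 fold change in the authors' deposited table was 1.24 (q = 0.00021), above that of 84.1% of tested genes. This q-value is the lowest in that table, but 24.0% of tested genes share the p-value behind it. In limma on the recovered libraries the difference was 1.24 on the log2(FPKM + 1) scale, with a 95% interval from 0.91 to 1.56 and an adjusted p of 9.34e-05. FtsZ2-1 went from a level above 50.7% of all tested genes in darkness to one above 81.1% under blue light.

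The plastid dynamin (CMN262C, chromosome 14 from 644735 to 647625), which acts on the cytosolic face of the plastid, went the other way. In the authors' deposited table it had 107 FPKM in darkness and 68.0 FPKM under blue light, which is a log2 fold change of -0.65 (q = 0.0053). Its fold change was above that of 24.8% of tested genes, close to their lower quartile of -0.65, so a fall of this size was common. FtsZ2-1 and the plastid dynamin were nearly equal in darkness, with an FPKM ratio of 0.986, and stood at a ratio of 3.67 under blue light. The table lists a second gene, CMN259C, at the same coordinates, so the authors' counting could divide fragments between them. The reference gene table, by contrast, holds these locus tags at separate places with CMN260C between them, so the coordinates given for CMN259C are uncertain, and with them what a sum over both rows means. In the authors' deposited table, CMN259C had 1.87 FPKM in darkness and 0.0022 FPKM under blue light, with no valid test. Adding it gave 109 and 68.0 FPKM and a log2 ratio of -0.68. It therefore held 1.72% of the summed value in darkness. The fall of the dynamin has no check in single libraries.

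PDR1 (CMR358C, chromosome 18 from 866683 to 868736) was scarce in both conditions. The authors' deposited table gave it 26.3 FPKM in darkness and 32.1 FPKM under blue light, and its log2 fold change of 0.29 did not pass (q = 0.45). Its darkness libraries stood at 29.5 and 23.1 FPKM, and its blue light libraries at 36.2 and 27.9 FPKM. The conditions overlapped, and the limma interval of the difference, from -0.36 to 0.91 on the log2(FPKM + 1) scale, leaves room for a change in either direction. These values rest on 47 and 28 fragments in darkness and 37 and 22 under blue light. FtsZ2-1 exceeded PDR1 by 4.0 times in darkness and 7.78 times under blue light in deposited FPKM.

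Neither mitochondrial division gene passed the test, and the 2 differed widely in level. FtsZ1-1 (CMO089C, chromosome 15 from 223820 to 225281), which in this alga forms the ring inside the mitochondrion, was the scarcest member. The authors' deposited table gave it 20.7 FPKM in darkness and 18.1 FPKM under blue light, with a log2 fold change of -0.20 (q = 0.72). The darkness libraries stood at 17.4 and 24.1 FPKM, and the blue light libraries at 21.4 and 14.8 FPKM. The ranges of the conditions overlapped. With 19 and 20 fragments in darkness and 15 and 8 under blue light, the limma estimate was -0.19 on the log2(FPKM + 1) scale, with an interval from -0.95 to 0.56 that includes 0 (adjusted p = 0.65).

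The mitochondrial dynamin (CME019C, chromosome 5 from 51180 to 53487), which constricts the mitochondrion from the cytosolic side, was the most abundant member. Its level in the authors' deposited table was 344 FPKM in darkness and 307 FPKM under blue light, and the log2 fold change was -0.16 (q = 0.52). In darkness its level was above 87.5% of tested genes and under blue light above 85.1%. It exceeded FtsZ1-1 by 16.6 times in darkness and 17.0 times under blue light, and it exceeded the plastid dynamin by 3.22 and 4.52 times, all in deposited FPKM. For its fragments 3 combinations fitted the deposited values equally well, so the spread between its libraries is not known.

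The FtsZ genes of plastid and mitochondrion can be compared within each library. The plastid FtsZ2-1 exceeded the mitochondrial FtsZ1-1 in FPKM by 6.18 and 4.28 times in the darkness libraries and by 11.9 and 16.6 times in the blue light libraries. Both blue light ratios lay above both darkness ratios, with a mean difference of 1.45 on the log2 scale. The recovery was held to the deposited fold changes, so these ratios are no independent check of the deposited ones. The ratio of 16.6 rests on 8 FtsZ1-1 fragments, in the shallower blue light library. An exact two-sided permutation test gave p = 0.333, which is the smallest that 2 libraries against 2 allow, so it cannot show whether the genes responded differently.

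The largest rise among the members was that of beta-tubulin. Beta-tubulin (CMN263C, chromosome 14 from 650545 to 651931) was listed in the authors' deposited table at 30.7 FPKM in darkness and at 202 FPKM after blue light. Its darkness libraries gave 32.0 and 29.4 FPKM, from 33 and 23 fragments, and its blue light libraries 162 and 241 FPKM, from 107 and 123 fragments. The lowest blue light value was 5.05 times the highest darkness value, and the blue light libraries differed from each other more than the darkness libraries did. The log2 fold change in the authors' deposited table was 2.71 (q = 0.00021), and the limma difference was 2.65 on the log2(FPKM + 1) scale, with an interval from 2.14 to 3.15 and an adjusted p of 1.43e-05. Its level went from above 12.3% of tested genes to above 76.2%, and its fold change was above that of 95.7% of tested genes.

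Alpha-tubulin (CMT504C, chromosome 20 from 1268607 to 1269955), the partner of beta-tubulin in the dimer, showed no called change. The authors' deposited table gave it 60.4 FPKM in darkness and 73.6 FPKM under blue light, with a log2 fold change of 0.28 (q = 0.39). Its darkness libraries stood at 56.1 and 64.8 FPKM, and its blue light libraries at 70.2 and 76.9 FPKM. The blue light libraries were above the darkness libraries, but the limma interval, from -0.17 to 0.73 on the log2(FPKM + 1) scale, included 0 (adjusted p = 0.26). The upper bound of this interval lies below the lower bound for beta-tubulin. Each interval is for a single gene and limma fitted no contrast between the tubulins, so this does not test whether they responded differently.

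The order of the tubulin transcripts turned between the conditions. Beta-tubulin stood at 0.571 and 0.455 times the FPKM of alpha-tubulin in the darkness libraries and at 2.30 and 3.14 times in the blue light libraries. In deposited FPKM the ratio went from 0.509 to 2.74. The mean difference of the log2 ratio was 2.40 between conditions, with blue light above darkness in every pairing of libraries. The exact two-sided permutation test again gave its smallest possible p of 0.333, so it cannot show whether the tubulins responded differently. Because the recovery was held to the deposited fold changes, the library ratios are no independent check of the deposited ones.

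**Figure D2:**
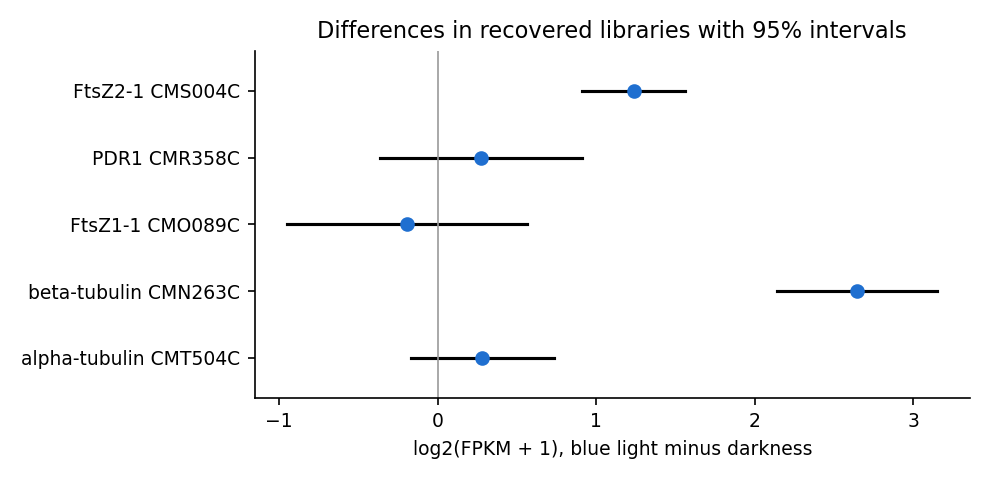
Difference between blue light and darkness in log2(FPKM + 1) for the 5 genes with recovered libraries, with 95% intervals from limma. The intervals of FtsZ2-1, from 0.91 to 1.56, and beta-tubulin, from 2.14 to 3.15, lie above 0, and those of PDR1, FtsZ1-1 and alpha-tubulin include 0.

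By limma, 2 of the 5 genes were higher and 0 lower under blue light at an adjusted p under 0.05, and 0 were lower at an unadjusted p under 0.05. For comparison, 55.4% of the 2992 genes in that fit were called, 29% as higher and 26.4% as lower. Since the recovery was held to the deposited fold change, the direction is no independent check of the authors' test, and what the fit adds is the spread between libraries. The 2 dynamins were not among the genes fitted.

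Ordered by deposited FPKM in darkness, the mitochondrial dynamin stood first, followed by the plastid dynamin and FtsZ2-1, then alpha-tubulin, beta-tubulin, PDR1 and FtsZ1-1. Under blue light the order was mitochondrial dynamin, FtsZ2-1, beta-tubulin, alpha-tubulin, plastid dynamin, PDR1 and FtsZ1-1. The places at both ends of the order were the same in both conditions, while the plastid dynamin and beta-tubulin exchanged sides of alpha-tubulin. Among neighbours in the darkness order, the libraries of beta-tubulin and PDR1 overlapped, as did those of PDR1 and FtsZ1-1. Under blue light, FtsZ2-1 and beta-tubulin came close, with 245 FPKM in the lower FtsZ2-1 library and 241 FPKM in the higher beta-tubulin library. Places that involve a dynamin could not be judged against a spread.

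**Figure D3:**
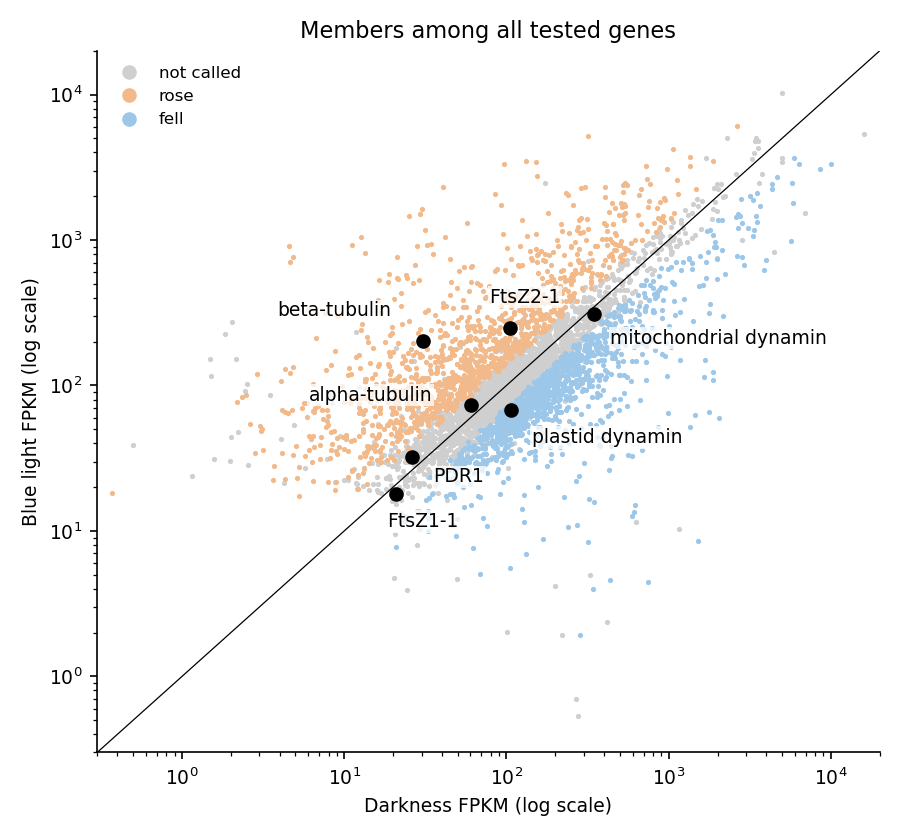
Deposited FPKM in darkness and under blue light, both on log axes, for tested genes above 0 in both conditions, coloured by the authors' call, with the 7 members in black. Beta-tubulin and FtsZ2-1 lie among the rises above the diagonal, the plastid dynamin at the edge of the falls, and the other 4 near the diagonal.

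The genes of the plastid dynamin and beta-tubulin are neighbours on chromosome 14. Their listed ends lie 2920 bp apart with 0 genes listed between them, and they changed in opposite directions. On the far side of the dynamin, CMN260C, at a gap of 531 bp, rose in the authors' deposited table from 297 to 652 FPKM (log2 fold change 1.13, q = 0.00021). On the far side of beta-tubulin, CMN264C, at a gap of 776 bp, rose in the authors' deposited table from 98.5 to 142 FPKM (log2 fold change 0.53, q = 0.046). No product is known for either gene from the tables used here. Of the 13 other tested genes with centres within 30 kb of the start of the beta-tubulin gene, 6 rose and 3 fell, against 27.1% and 26.1% of all tested genes; whether these shares differ was not tested. The largest log2 fold change among them was 2.82, above that of beta-tubulin itself.

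**Figure D4:**
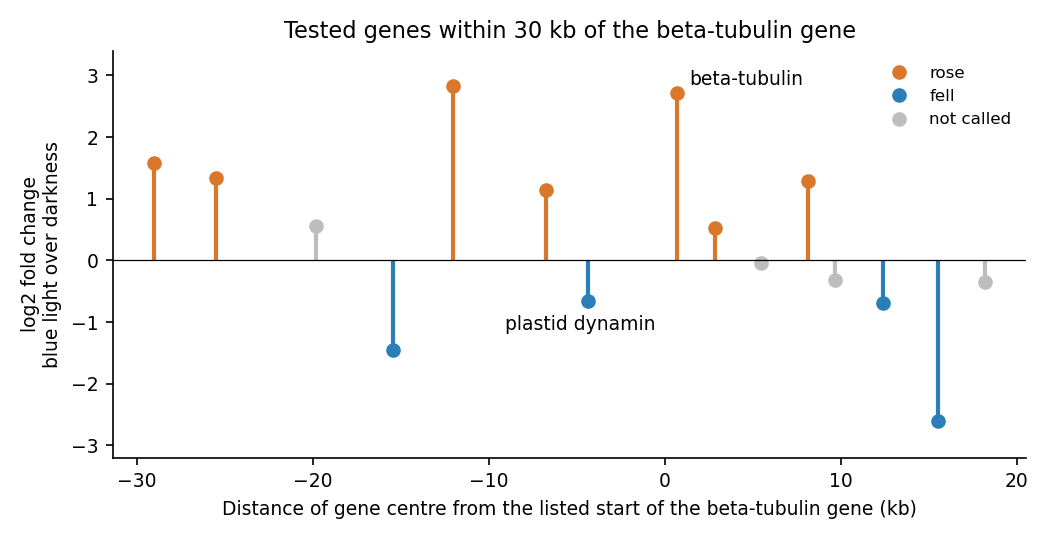
Log2 fold change in the authors' deposited table against the distance of each gene's centre from the listed start of the beta-tubulin gene, for the 15 tested genes within 30 kb. The region holds 7 rises, 4 falls and 4 uncalled genes, and the plastid dynamin, which fell, lies between genes that rose.

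Across the members, the nearest gene on each side was a gene other than a member in 12 cases. Of these, 3 rose, 2 fell, 5 were not called and 2 had no valid test, so 5 of the 10 tested were called, beside 53.2% of all tested genes. FtsZ2-1, which rose, had 1 tested nearest neighbour, and that gene fell by 0.73 on the log2 scale in the authors' deposited table (q = 0.018). The tested nearest neighbour of FtsZ1-1 rose by 0.60 (q = 0.044) and that of alpha-tubulin on its lower side fell by 0.67 (q = 0.011), both log2 fold changes in the authors' deposited table.

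For each member, the most similar gene was the one nearest in the plane of log2 darkness FPKM and log2 blue light FPKM, over 2 conditions only, among 4258 tested nuclear genes at loci of their own. The distances were 0.0099 to 0.097 on the log2 scale. All 7 nearest genes had the same call as their member, which so short a distance makes likely. The gene nearest to beta-tubulin lies on chromosome 3 from 364899 to 365452 and had 31.2 FPKM in darkness and 194 FPKM under blue light by the authors' deposited table. The gene nearest to FtsZ2-1 lies on chromosome 20 from 1197782 to 1199296 and had 107 FPKM in darkness and 252 FPKM under blue light by the authors' deposited table.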

How the data were processed

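Per the labels' protocols, Trizol was used to extract RNA, and an Illumina TruSeq kit turned it into libraries. Per the submitters' processing notes, the authors used TopHat2 2.0.5 and Cuffdiff. Which genome build, annotation, normalization and strand setting they chose is not given in the sources used here. Per the file headers, the table deposited by the authors holds 1 FPKM value per condition, a log2 fold change (blue light against darkness), a test statistic, which is a score and was not used, and p-values and q-values over all tested genes. A gene was called at a q-value under 0.05 with a valid test. The header also names a limit of 1.5-fold, but 147 genes marked significant lie under it. The lowest p-value, 5e-05, is shared by 24.0% of tested genes, so the lowest q-values cannot be ranked.

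Fragments per library were recovered for genes of at least 650 bp at loci of their own. A condition's FPKM was taken as the mean of 2 libraries, each a whole number of fragments times a fitted step, divided by the span after taking off a fitted 162.2 to 172.8 bp, and solutions had to give the deposited value to 6 digits and the deposited log2 fold change. Of 3880 genes, 3165 had 1 solution. The steps equal depths, after the authors' scaling, of 845127 and 643989 fragments for darkness and of 540167 and 418040 for blue light. Recovery and fit were tested on data simulated with these fitted steps, which cannot show that the model holds for the deposited values. Recovered values of 2992 tested genes entered limma 3.58.1 (R 4.3.3) as log2(FPKM + 1), using a prior that depends on the mean, at least 1 FPKM on average and Benjamini-Hochberg adjustment; this scale understates the change of low genes.

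Members, lists and comparisons were chosen with earlier results of these data known. The text names the members, their neighbours and the gene nearest to each member in level; of genes with no annotation other than a locus tag, few are named by ID. No protein or promoter sequences were at hand, so lists of related genes, motifs and protein comparisons were not made.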

Additional observations from a re-analysis of the deposited data

How the results depend on the processing

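A limit of 1 on the size of the log2 fold change left 0 falls in place of 1, since the plastid dynamin fell by 0.65, and left the 2 rises. A q-value under 0.01 or a 1.5-fold limit left 2 rises and 1 fall. Other pseudocounts and filters in limma gave 2 genes higher and 0 lower of the 5 fitted. With no filter 2992 genes were fitted, as in the main fit, and with a minimum mean of 10 FPKM 2991, so the filters tested little. The plastid dynamin was not among the genes fitted. Since the recovery was held to the deposited fold changes, these fits are no independent check of direction. Where a recovered library was left out, the library left alone was taken to be as variable as those of the other condition. Over the fits that left out a library, the differences ran from 2.36 to 2.93 for beta-tubulin, from 1.21 to 1.265 for FtsZ2-1, from 0.18 to 0.38 for alpha-tubulin and from 0.091 to 0.46 for PDR1. A pseudocount of 10 gave 2.35 for beta-tubulin and 1.17 for FtsZ2-1. FtsZ1-1, not called, ran from -0.445 to 0.059 and turned to 0.032 without the shallower darkness library and to 0.059 without the shallower blue light library; the cause was not tested. Adding CMN259C to the plastid dynamin was chosen after seeing the data. No paired analysis was possible because no replicate number could be assigned to any recovered library. Lists of related proteins were not run. Depth limits FtsZ1-1 most, at 39 fragments in darkness and 23 under blue light.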
